A study of Mus musculus with 6 samples.

Results

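Matricellular proteins of the embryonic valve were followed through 10 genes, Postn, Tnc, Sparc, Thbs1, Thbs2, Ctgf, Cyr61, Nov, Fn1 and Ccdc80, out of the 18810 genes listed for this tissue. They were chosen by symbol, and every symbol matched 1 Ensembl gene in the annotation of mm9. RNA-seq was performed on dissected atrioventricular canal regions of C57BL/6 mouse hearts at embryonic day 15.5, from 3 Scx-/- embryos (Scx null, the gene of the transcription factor Scleraxis) and 3 Scx+/+ littermates, and neither genotype received a treatment. The dissection took in the mitral, tricuspid and aortic valves and the cells were not sorted, so that a level below is an average over all its cells, and fewer cells of a type cannot be told apart from less RNA per cell. The comparison asks which transcripts differ in valves that form without Scx, at the stage when valve remodeling begins. Levels are given in RPKM, reads scaled by exon length and library depth, for Scx-/- replicates 1 to 3 and then for Scx+/+ replicates 1 to 3.

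Matricellular proteins are secreted into the extracellular matrix, where most of them signal through cell surface receptors or organize collagen and growth factors rather than forming the main fibers. Periostin (Postn) is a recognised marker of valve mesenchyme and of its fibroblast-like descendants. Tenascin-C (Tnc) is transient in remodeling tissue, and the CCN proteins Ctgf, Cyr61 and Nov are modular growth factor-binding proteins. Ctgf and Cyr61 are well-known targets of the coactivators YAP and TAZ with their TEAD partners.

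Before the genes are described, some features of the libraries bear on every value. Scx itself, counted over the whole gene, was 33.6, 18.6 and 82.9 RPKM in Scx-/- and 29.5, 58.3 and 26.0 RPKM in Scx+/+. These whole-gene values do not check the genotype labels, exon-level values were not analysed here, and libraries are named by label throughout. Clustering of the libraries on all genes first set Scx-/- replicate 3 and Scx+/+ replicate 2 apart from the other 4. Cardiomyocyte transcripts were abundant in every library. Both of these libraries had the highest summed level of the 14 cardiomyocyte markers, 31362 and 34829 RPKM against 19759 to 26847 RPKM. They also had the lowest sum of the cushion and valve mesenchyme markers other than Scx, 69.5 and 64.5 RPKM against 93.8 to 117 RPKM. Abundant genes weigh most in these sums, Myl2 with 11261.9 and 11634.5 RPKM and Tbx20 with 35.4 and 34.5 RPKM. With Scx counted in, the mesenchyme sums of the 2 libraries were 152 and 123 RPKM against 120 to 136 RPKM, and so not the lowest. Within their genotype, 6 of the 14 cardiomyocyte markers were highest in both libraries and 0 lowest, where 14.3% and 25.0% of all genes were. Of the 13 mesenchyme markers measured, 6 were lowest in both and 1, Scx, highest. Xist was expressed in replicate 2 of both genotypes and in no other library. Depth, recovered from RPKM and exon length, was 46429971 to 68571019 reads per library.

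Promoter sequence is shown for 4 of the genes, since Scleraxis is a basic helix-loop-helix factor of the kind that binds E-boxes (CANNTG) and since Cyr61 is a known TEAD target, TEAD factors binding the MCAT element (CATTCC, read on both strands). RefSeq windows on GRCm38.p6 were matched for 5 of the 10 genes, Postn, Tnc, Sparc, Thbs2 and Cyr61 (listed there as Ccn1). Thbs1, Ctgf (Ccn2), Nov (Ccn3), Fn1 and Ccdc80 had no window. The 250 bases before the start are printed 5′ to 3′ on the strand of the gene, with E-boxes and MCAT elements in capitals.
Postn, the downstream of its 2 starts, chr3:54360857-54361106, plus strand: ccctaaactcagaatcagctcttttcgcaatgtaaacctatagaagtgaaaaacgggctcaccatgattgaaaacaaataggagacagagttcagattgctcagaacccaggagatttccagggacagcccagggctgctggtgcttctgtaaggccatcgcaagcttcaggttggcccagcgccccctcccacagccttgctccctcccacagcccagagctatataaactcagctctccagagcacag
Tnc, the upstream of its 2 starts, chr4:64047016-64047265, minus strand: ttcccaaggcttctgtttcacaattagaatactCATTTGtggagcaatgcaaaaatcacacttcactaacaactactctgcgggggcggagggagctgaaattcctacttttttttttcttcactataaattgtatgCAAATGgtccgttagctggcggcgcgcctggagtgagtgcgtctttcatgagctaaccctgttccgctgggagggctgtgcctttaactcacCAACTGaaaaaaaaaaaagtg
Thbs2, chr17:14694263-14694512, minus strand: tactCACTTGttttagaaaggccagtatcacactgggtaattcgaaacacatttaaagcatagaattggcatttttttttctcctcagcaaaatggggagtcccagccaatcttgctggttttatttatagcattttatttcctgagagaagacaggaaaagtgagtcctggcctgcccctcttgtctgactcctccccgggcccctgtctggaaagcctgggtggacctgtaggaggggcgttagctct
Cyr61, chr3:145649986-145650235, minus strand: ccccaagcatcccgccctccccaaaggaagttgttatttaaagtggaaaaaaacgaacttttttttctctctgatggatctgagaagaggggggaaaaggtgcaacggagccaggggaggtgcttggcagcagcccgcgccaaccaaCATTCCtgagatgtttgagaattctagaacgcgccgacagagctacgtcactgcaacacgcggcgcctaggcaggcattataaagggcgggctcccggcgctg
Among these, Tnc held 3 E-boxes, the first base of which lay 217, 113 and 21 bases before the start, and Thbs2 held 1, at 246 bases. The window of the downstream Tnc start, which overlaps the printed one, held 2, at 192 and 100 bases. Postn and Cyr61 held none in the windows printed, and Sparc, not printed, held 2. Of all 32851 promoter windows of this length, 66.2% held an E-box. Cyr61 was the only one of the 5 genes with an MCAT element, at 103 bases before the start, and 12.6% of all windows held one. The Smad motif CAGAC occurred in at least 1 window of Postn, Tnc, Sparc and Thbs2 and in 42.2% of all windows, and the CArG box of SRF in none of the 5 genes and in 1.47% of all windows. A match in these letters is not a binding site, and the absence of one says nothing of the factor.

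The smallest number of reads behind any value was 215, for Nov, where counting error alone would be 6.82%, and no library stood at the fill-in value for low genes in any of them. Fold changes below are differences of means on the log2(RPKM + 0.1) scale, Scx-/- minus Scx+/+, with their standard error from limma fitted across all genes. Calls were made where the unadjusted p was under 0.05. That is also the threshold named in the methods of the study. By that rule 0 of the 10 genes were called in either direction, where 3.89% of all genes were, 2.82% of them higher and 1.06% lower in Scx-/-. After Benjamini-Hochberg adjustment in limma no gene of the 18810 was called, and the adjusted p of the 10 genes ran from 0.967 to 1.00. For 0 of the 10 the genotypes did not overlap, where 9.50% of all genes showed no overlap. The table as a whole leaned upwards, with a median log2 fold change of 0.10 over all genes, and one of -0.0045 when the median of each library was set to 0. Against that shift 4 of the 10 genes lay above and 6 below.

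**Figure D1:**
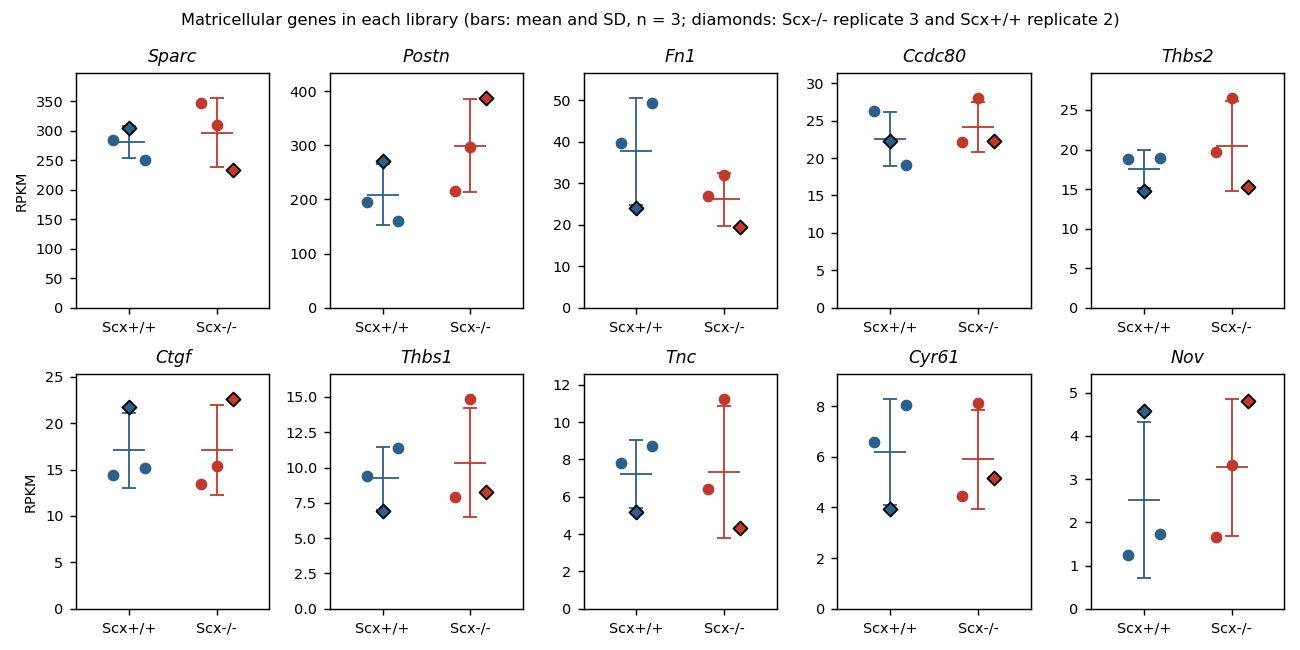
Level in RPKM (y axis, from 0, a scale for each gene) of the 10 genes in the 3 Scx+/+ (blue) and 3 Scx-/- (red) libraries, with the mean and SD (n = 3) as bars. Diamonds are Scx-/- replicate 3 and Scx+/+ replicate 2, and in every panel the points of the genotypes overlap.

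By level, the genes spanned from 288 RPKM for Sparc to 2.89 RPKM for Nov as the mean of the 6 libraries. The order was Sparc, Postn, Fn1, Ccdc80, Thbs2, Ctgf, Thbs1, Tnc, Cyr61 and Nov. Sparc and Postn together held 75.7% to 85.9% of the summed RPKM of the 10 genes in each library. Their mean levels ranked 403rd and 451st among the 18810 genes of the table, whereas Nov ranked 10061st. Neighbours in this order were compared within each library. For 4 of the 9 neighbouring pairs the order was the same in all 6 libraries, namely Postn over Fn1, Ccdc80 over Thbs2, Ctgf over Thbs1 and Thbs1 over Tnc. The other 5 pairs crossed in at least 1 library, Sparc and Postn among them, where Sparc was higher in 5 of 6 and the mean log2 ratio, 0.23, was smaller than its SD of 0.53 (n = 6). The order was set on these same libraries, so it is a description without a test.

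Postn (ENSMUSG00000027750, chromosome 3 of mm9 from 54165031 to 54194961, plus strand, 22 merged exons) encodes periostin, which binds collagen and integrins and promotes collagen crosslinking. Its levels were 216, 296 and 387 RPKM in Scx-/- and 195, 271 and 161 RPKM in Scx+/+. The highest library of each genotype was one of the pair that stood apart, and the lowest Scx-/- value lay under the highest Scx+/+ value. The means were 299 ± 85.5 and 209 ± 56.3 RPKM (SD, n = 3 each), a log2 fold change of 0.51 with a 95% confidence interval from -0.11 to 1.14 (limma, unadjusted p = 0.0956, adjusted p = 0.967). The difference was therefore within what the spread between libraries allows.

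Fn1 (ENSMUSG00000026193, chromosome 1 from 71632094 to 71699774, minus strand, 46 merged exons) encodes fibronectin, a large adhesive glycoprotein that integrins assemble into fibrils. It was 27.0, 32.1 and 19.5 RPKM in Scx-/- and 39.8, 24.0 and 49.3 RPKM in Scx+/+. Here the pair that stood apart was the lowest library of each genotype, and Scx+/+ replicate 2 lay below 2 of the Scx-/- libraries. The log2 fold change was -0.49 with a 95% confidence interval from -1.15 to 0.16 (limma, unadjusted p = 0.123, adjusted p = 0.967), the lowest of the 10 genes as Postn was the highest. Fn1 exons share 292 bases, 3.50% of its exon length, with Apol7d on the other strand, which was 1.82 to 4.03 RPKM.

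Sparc (ENSMUSG00000018593, chromosome 11 from 55208002 to 55233582, minus strand) encodes osteonectin, a collagen chaperone and calcium-binding glycoprotein. It was 347, 309 and 233 RPKM in Scx-/- and 285, 304 and 251 RPKM in Scx+/+. The Scx-/- libraries spanned the whole Scx+/+ range and passed it at both ends. Its log2 fold change was 0.07 (standard error 0.21, limma, adjusted p = 0.988), with a 95% interval from -0.41 to 0.55. The direction turned to -0.042 with the library medians set to 0, -0.017 after quantile normalization and -0.055 once a spline on length and GC was subtracted.

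Ccdc80 (ENSMUSG00000022665, chromosome 16 from 45093515 to 45128037, plus strand) encodes a secreted matrix protein that promotes cell adhesion. It varied least of the 10 genes, with 22.2, 28.0 and 22.2 RPKM in Scx-/- and 26.3, 22.3 and 19.1 RPKM in Scx+/+. The highest library was 1.46 times the lowest. The log2 fold change was 0.10 (standard error 0.19, limma, adjusted p = 0.980), and it was -0.0086 with library medians set to 0 and -0.022 after quantile normalization.

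Tnc (ENSMUSG00000028364, chromosome 4 from 63620819 to 63681760, minus strand, 26 merged exons) encodes the multi-armed glycoprotein tenascin-C, which lessens cell adhesion to fibronectin. It was 6.42, 11.2 and 4.30 RPKM in Scx-/- and 7.81, 5.17 and 8.70 RPKM in Scx+/+. Both the highest and the lowest of the 6 values were in Scx-/-. The means, 7.31 ± 3.54 and 7.23 ± 1.84 RPKM (SD, n = 3 each), gave a log2 fold change of -0.06 with a 95% interval from -0.86 to 0.74 (limma, adjusted p = 0.996). Changes in either direction by more than 1.5-fold lie inside that interval, so that the data do not show equal levels. Tnc exons share 176 bases, 2.34% of the exon length, with 8030451A03Rik on the plus strand, which was at most 0.511 RPKM.

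The thrombospondins Thbs1 and Thbs2 are trimeric calcium-binding glycoproteins that restrain angiogenesis, and Thbs1 is also an activator of latent TGF-beta. Thbs1 (ENSMUSG00000040152, chromosome 2 from 117937612 to 117952869, plus strand) was 7.94, 14.8 and 8.28 RPKM in Scx-/- and 9.43, 6.89 and 11.4 RPKM in Scx+/+. Thbs2 (ENSMUSG00000023885, chromosome 17 from 14802507 to 14831269, minus strand) was 19.7, 26.5 and 15.3 RPKM in Scx-/- and 18.8, 14.7 and 18.9 RPKM in Scx+/+. Scx-/- replicate 2 was the highest library for both genes and Scx+/+ replicate 2 the lowest. Their log2 fold changes were 0.13 (standard error 0.29, limma, adjusted p = 0.980) and 0.20 (standard error 0.23, limma, adjusted p = 0.967). With 0.1 RPKM added to both levels, Thbs1 was at 0.407 to 0.604 of Thbs2 in every library. The scaling of the libraries nearly cancels in this ratio. It did not differ between genotypes beyond its spread (difference of the mean log2 ratio -0.07, exact permutation test, two-sided, p = 0.8). With 3 against 3 libraries that p cannot go below 0.1.

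Of the CCN genes, Ctgf had the highest level and Nov the lowest. Ctgf (ENSMUSG00000019997, chromosome 10 from 24315248 to 24318489, plus strand), a fibrogenic growth factor-binding protein, was 13.4, 15.3 and 22.6 RPKM in Scx-/- and 14.4, 21.7 and 15.1 RPKM in Scx+/+. The pair that stood apart was again the highest library of each genotype. The means were 17.1 ± 4.81 and 17.1 ± 4.04 RPKM (SD, n = 3 each), a log2 fold change of -0.01 with a 95% interval from -0.56 to 0.55 (limma, adjusted p = 1.00). Exons of Ctgf share 570 bases, 22.9% of its exon length, with Gm15270 on the minus strand, which was up to 10.6 RPKM. The strand of the counting is not given in the sources used here, so the reads of these 2 genes cannot be told apart there.

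Cyr61 (ENSMUSG00000028195, chromosome 3 from 145309935 to 145312949, minus strand), an integrin ligand made early after growth factor or mechanical stimulation, was 4.44, 8.13 and 5.16 RPKM in Scx-/- and 6.57, 3.94 and 8.05 RPKM in Scx+/+. The highest library of each genotype was not the one that was highest for Ctgf. The log2 fold change was -0.05 (standard error 0.32, limma, adjusted p = 0.996).

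Nov (ENSMUSG00000037362, chromosome 15 from 54577257 to 54585594, plus strand) encodes the CCN protein that often opposes Ctgf, and lies 21.7 Mb from Scx on the same chromosome. It was 1.67, 3.32 and 4.81 RPKM in Scx-/- and 1.25, 4.58 and 1.73 RPKM in Scx+/+. Scx-/- replicate 3 and Scx+/+ replicate 2 were close to each other and highest, and the spread within genotypes, 0.85 on the log2 scale, was larger than that of 93.3% of the 13827 genes whose mean reached 1 RPKM. The log2 fold change of 0.45 had a 95% interval from -0.73 to 1.63 (limma, unadjusted p = 0.406, adjusted p = 0.967).

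Ratios within the CCN family moved between libraries far more than the thrombospondin ratio. With 0.1 RPKM again added to each level, Ctgf was 1.87 to 5.40 times Cyr61 and 4.51 to 10.7 times Nov over the 6 libraries. The added amount weighs most on the ratios to Nov, the lowest gene. On the same scale Cyr61 was 0.863 to 4.95 times Nov, so that the 2 genes changed places. The difference between genotypes in the mean log2 ratio was 0.05 for Ctgf over Cyr61, -0.46 for Ctgf over Nov and -0.51 for Cyr61 over Nov (exact permutation tests, two-sided, p = 0.9, 0.2 and 0.6, and 0.8 to 0.9 after adjustment over the 4 paralogue ratios).

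**Figure D2:**
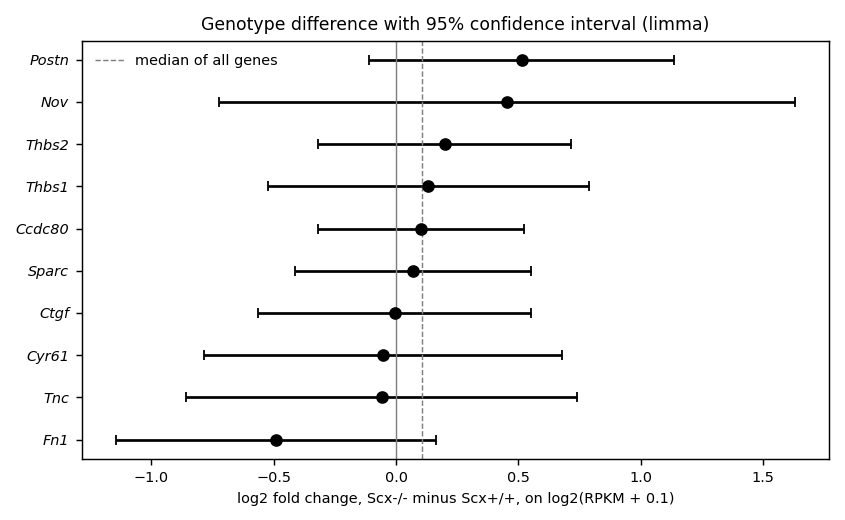
Log2 fold change (x axis, Scx-/- minus Scx+/+ on log2(RPKM + 0.1)) of each gene (y axis) with its 95% confidence interval from limma, 3 libraries per genotype. The dashed line is the median of all genes, 0.10, and all 10 intervals include 0.

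Between libraries, the 10 genes did not vary as a block. Postn, Ctgf and Nov were each highest, within their genotype, in Scx-/- replicate 3 and in Scx+/+ replicate 2. These are 3 of the 10 genes, where 14.3% of all genes had that pattern. Tnc, Thbs2 and Fn1 were lowest in those same libraries, 3 of 10, where 25.0% of all genes were. Within Scx-/-, 6 genes (Tnc, Thbs1, Thbs2, Cyr61, Fn1 and Ccdc80) were highest in replicate 2, and within Scx+/+, 5 genes were highest in replicate 3. The deviations of Tnc ran from -0.64 in Scx-/- replicate 3 to 0.72 in Scx-/- replicate 2, and those of Nov from -0.81 in Scx-/- replicate 1 to 1.05 in Scx+/+ replicate 2, on the log2 scale. Because 2 of the 6 libraries stand apart on all genes, no correlation across libraries was computed. The cardiomyocyte sum and the mesenchyme sum without Scx, given above, moved with the same libraries, and their part in these values was not tested.

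**Figure D3:**
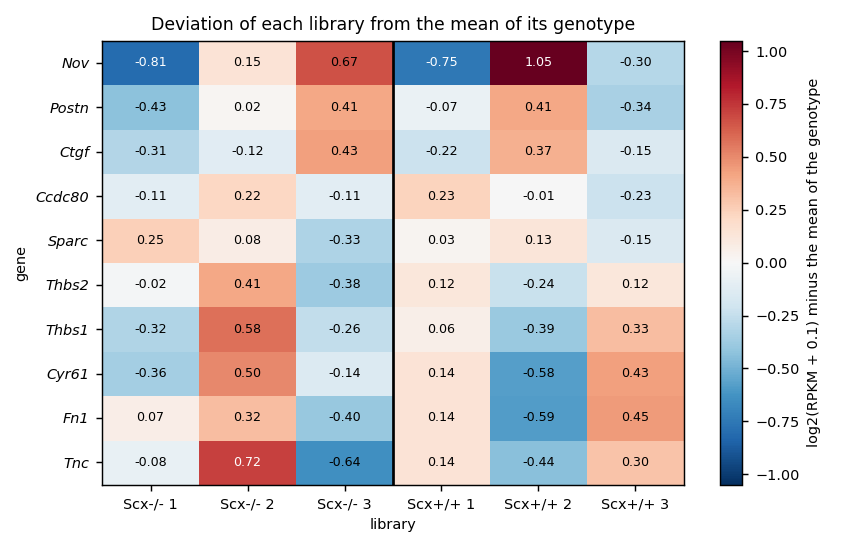
Each library (x axis) against each gene (y axis), colored by log2(RPKM + 0.1) minus the mean of the genotype, with the value written in the cell. Nov, Postn and Ctgf are red in Scx-/- replicate 3 and Scx+/+ replicate 2, where Tnc, Fn1, Cyr61, Thbs1 and Thbs2 are blue.

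Within the pair of libraries that stood apart, Postn was higher in the Scx-/- library by 0.51 on the log2 scale, and among the other 4 libraries it was also higher in Scx-/- by 0.51. Fn1 differed by -0.30 within the pair and by -0.59 among the other 4. In all, 5 of the 10 genes (Postn, Thbs1, Thbs2, Nov and Fn1) had the same direction in both, where 47.9% of all genes did. Among the 4 remaining libraries the genotypes did not overlap for Postn, Sparc, Thbs2 and Fn1, 4 of 10 genes, where 41.3% of all genes showed no overlap.

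Postn and Fn1 were the genes whose call depended on the libraries used. Without Scx+/+ replicate 2, 2 genes were called in limma, where 8.23% of all genes were, Postn with a log2 fold change of 0.72 (unadjusted p = 0.0339) and Fn1 with -0.79 (unadjusted p = 0.0165). Without Scx-/- replicate 1, Postn alone was called (log2 fold change 0.73, limma, unadjusted p = 0.0451), where 3.07% of all genes were. With a covariate for the pair that stands apart, an alternative chosen after seeing the data, Postn (unadjusted p = 0.0203) and Fn1 (unadjusted p = 0.0148) were called in limma at adjusted p = 0.700 each, where 7.11% of all genes were called before and none after adjustment. With that pair left out altogether, Fn1 alone was called (log2 fold change -0.59, limma, unadjusted p = 0.0292), where 8.44% of all genes were, and likewise with library medians also set to 0 (-0.73, limma, unadjusted p = 0.0160), where 7.72% were. In every one of the 20 settings run, Postn was above 0 and Fn1 below 0. The settings reuse the same libraries, and several leave the fold change itself unaltered, so an unchanged sign is no separate evidence.

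**Figure D4:**
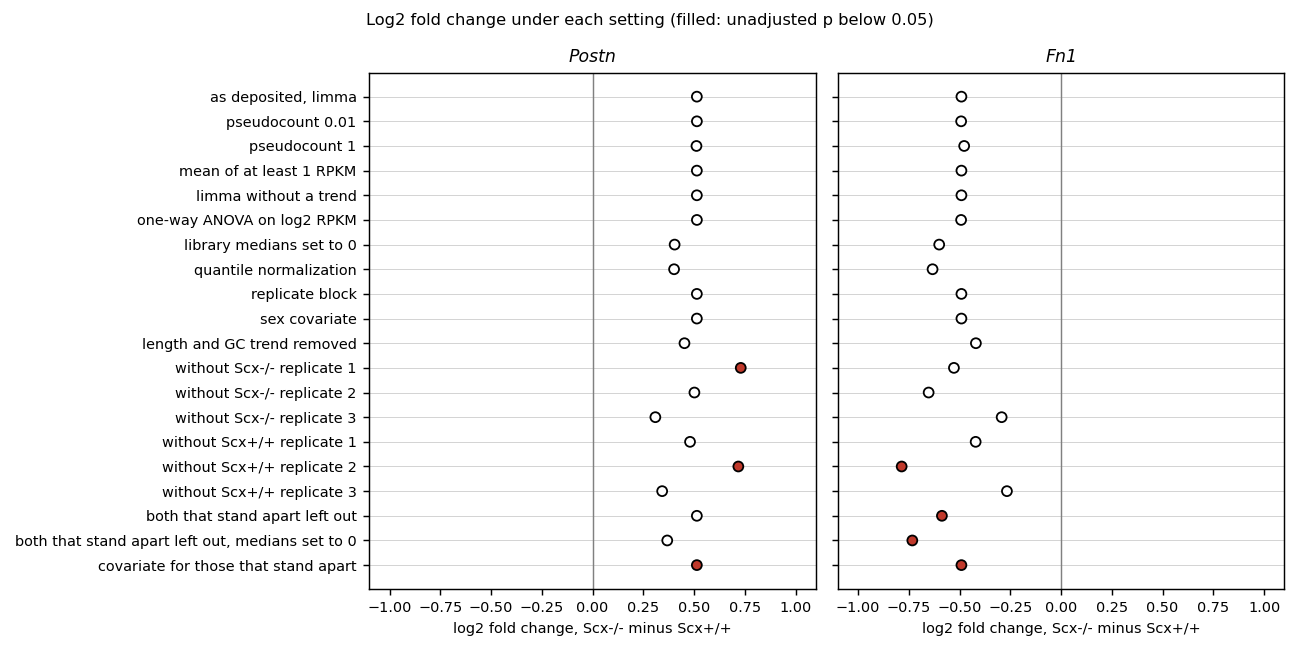
Log2 fold change of Postn and Fn1 (x axis, Scx-/- minus Scx+/+) under each setting (y axis), filled where the unadjusted p was below 0.05. Postn ran from 0.31 to 0.73 and Fn1 from -0.79 to -0.27 over the fits that omit a single library.

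Other genes of the matricellular families were examined from a list of 18, of which 15 were measured. In limma 0 were called higher and 1 lower in Scx-/-, with a median log2 fold change of 0.05 against 0.10 over all genes. Over all genes 3.89% were called, the share to set beside the calls of this and the following lists. Smoc1, a calcium-binding relative of Sparc, fell to 0.590, 0.722 and 0.541 RPKM in Scx-/- from 1.23, 1.097 and 1.38 RPKM in Scx+/+. The genotypes did not overlap (log2 fold change -0.90, standard error 0.35, limma, unadjusted p = 0.0312, adjusted p = 0.967), from 108 to 331 reads. Of the relatives that were not called, the most abundant was Fstl1, a secreted follistatin-like glycoprotein, at 152 ± 14.1 and 128 ± 15.3 RPKM (SD, n = 3 each), without overlap (log2 fold change 0.25, limma, unadjusted p = 0.179). Sparcl1, a close paralogue of Sparc, was 129, 107 and 182 RPKM in Scx-/- and 107, 180 and 92.6 RPKM in Scx+/+, highest in the pair that stands apart. Tgfbi, a paralogue of Postn, was 13.1, 12.4 and 4.91 RPKM and 10.4, 3.75 and 12.3 RPKM, lowest in that pair. Fstl1, Sparcl1 and Tgfbi were picked after their values were seen.

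Receptors of matricellular proteins, mainly integrin subunits, were represented by 19 of 22 listed genes. In limma 0 were called in either direction, with a median log2 fold change of -0.06. The most abundant were Itgb1, the beta subunit shared by most of these integrins, at 374 ± 26.6 and 321 ± 32.0 RPKM (SD, n = 3 each), and Cd36, a thrombospondin receptor, at 204 ± 91.7 and 191 ± 102 RPKM (SD, n = 3 each). Cd36 reached 310 and 308 RPKM in the pair that stands apart and 117 to 155 RPKM elsewhere.

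All 21 listed matrix partners and processing enzymes were measured, and 0 were called, with a median log2 fold change of -0.01. Decorin (Dcn), a collagen-binding proteoglycan, was 164 ± 13.1 RPKM in Scx-/- and 124 ± 19.3 RPKM in Scx+/+ (SD, n = 3 each), without overlap (log2 fold change 0.40, limma, unadjusted p = 0.0533). Col3a1, a fibrillar collagen chain, was 124 ± 26.9 and 125 ± 7.46 RPKM (SD, n = 3 each).

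Of the YAP and TEAD list, 15 of 16 genes were measured under 16 identifiers, with a median log2 fold change of -0.02, and 2 identifiers were called lower, both of Tead1, a DNA-binding partner of YAP. The longer, ENSMUSG00000055320, was 5.22, 4.60 and 3.93 RPKM in Scx-/- and 8.12, 5.34 and 10.2 RPKM in Scx+/+, again without overlap (log2 fold change -0.73, standard error 0.27, limma, unadjusted p = 0.0238, adjusted p = 0.967). The other, ENSMUSG00000055593, shares 99.9% of its exon length with it and is no separate measurement (log2 fold change -0.72). Yap1 and Wwtr1, which encode YAP and TAZ, were not called, nor were Ctgf and Cyr61. Of all genes, 3.89% were called.

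From the TGF-beta list, 17 of 18 genes were measured and 0 called, with a median log2 fold change of 0.01. The receptor Tgfbr1 was 17.2 ± 1.90 and 15.5 ± 4.04 RPKM and Smad4, the shared signal transducer, 14.1 ± 1.31 and 15.4 ± 1.65 RPKM (SD, n = 3 each). Immediate early genes, which respond within minutes to handling and growth factors, gave 20 of 23 genes and 0 calls, with a median log2 fold change of 0.04. Their summed level was 103 to 108 RPKM in Scx-/- and 97.8 to 114 RPKM in Scx+/+. The most abundant were the transcription factor gene Klf6, at 35.6 ± 0.777 and 34.0 ± 1.33 RPKM, and Ier3, at 10.6 ± 2.19 and 10.9 ± 5.87 RPKM (SD, n = 3 each). Fos was 1.28, 0.787 and 0.327 RPKM in Scx-/- and 0.737, 0.348 and 1.18 RPKM in Scx+/+, and Klf2, a shear-responsive factor of endothelium, was 1.38, 1.196 and 1.97 RPKM and 1.62, 2.59 and 1.76 RPKM. Egr1 stood at 0.149 to 0.969 RPKM.

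Marker lists of the cell types in or near the region were summed in each library. Calls in them were made at an unadjusted p under 0.05 in limma, where 3.89% of all genes were called. For cushion and valve mesenchyme, 13 of 14 genes were measured with a median log2 fold change of 0.07, Snai2 was called lower (1.43 ± 0.492 against 2.48 ± 0.491 RPKM, log2 fold change -0.80, limma, unadjusted p = 0.0475) and Meox1 higher (9.37 ± 2.67 against 6.19 ± 0.811 RPKM, log2 fold change 0.56, limma, unadjusted p = 0.0459, SD and n = 3 throughout). Cardiomyocyte markers, 14 of 14 measured with a median of 0.08, had 1 call, the calcium release channel gene Ryr2, lower in Scx-/- (log2 fold change -0.46, limma, unadjusted p = 0.0308). Among 10 epicardial markers, with a median of 0.29, Upk1b and Aldh1a2 were called higher (log2 fold changes 0.61 and 0.60, limma, unadjusted p = 0.0378 and 0.0430), and the summed level was 29.4 to 42.4 RPKM in Scx-/- and 24.0 to 34.7 RPKM in Scx+/+. Endothelial markers, 10 of 10 measured, summed to 138 to 165 RPKM in Scx-/- and 137 to 156 RPKM in Scx+/+, with 0 calls and a median log2 fold change of -0.06. The leading genes were Pecam1 at 36.5 ± 3.04 and 35.8 ± 2.68 RPKM and Tek at 31.3 ± 5.05 and 27.3 ± 5.47 RPKM (SD, n = 3 each). Smooth muscle markers, 8 of 8, summed to 487 to 681 and 460 to 553 RPKM, with 0 calls and a median of 0.18. Acta2 led at 441 ± 93.0 and 390 ± 46.7 RPKM, and Tagln at 78.6 ± 29.0 and 52.6 ± 4.50 RPKM (SD, n = 3 each) showed no overlap without being called (limma, unadjusted p = 0.0614). Erythroid markers, 10 of 11, summed to 9514 to 14286 and 7826 to 14027 RPKM, with 0 calls and a median of 0.21, led by the alpha-globin genes Hba-a1 at 3711 ± 867 and 3166 ± 891 RPKM and Hba-a2 at 3433 ± 808 and 2889 ± 814 RPKM (SD, n = 3 each), whose near-identical sequences leave their split uncertain. The macrophage list (9 of 10, median -0.08, 34.3 to 55.5 and 44.8 to 45.9 RPKM) had 1 call, Cd68, higher in Scx-/- (log2 fold change 1.48, limma, unadjusted p = 0.0290). Cd68 was at the fill-in value in Scx+/+ replicate 2 and had at most 130 reads in any library. Platelet markers, from cells that also store Thbs1 and Sparc, were 6 of 9 genes summing to 7.32 to 7.85 RPKM in Scx-/- and 7.20 to 14.1 RPKM in Scx+/+, with 0 calls and a median of -0.32. Pf4 was 3.93 ± 1.82 and 5.24 ± 1.98 RPKM and Ppbp 1.39 ± 0.888 and 1.85 ± 0.973 RPKM (SD, n = 3 each). Liver markers, from the organ that makes plasma fibronectin, were 4 of 9 genes summing to 1.36 to 7.28 RPKM, with a median of 0.50 and 1 call, Apoh (log2 fold change -1.45, limma, unadjusted p = 0.0414), which was at the fill-in value in 2 Scx-/- libraries. Cartilage and tendon markers, 4 of 10, summed to 3.63 to 6.98 RPKM with 0 calls and a median of 0.07, led by Sox6 at 1.999 ± 0.374 and 1.66 ± 0.248 RPKM and Col11a1 at 1.49 ± 0.462 and 1.65 ± 0.271 RPKM (SD, n = 3 each). No gene of any list was called after adjustment in limma, and whether any of these cell types contributed to the values of the 10 genes was not tested.

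**Figure D5:**
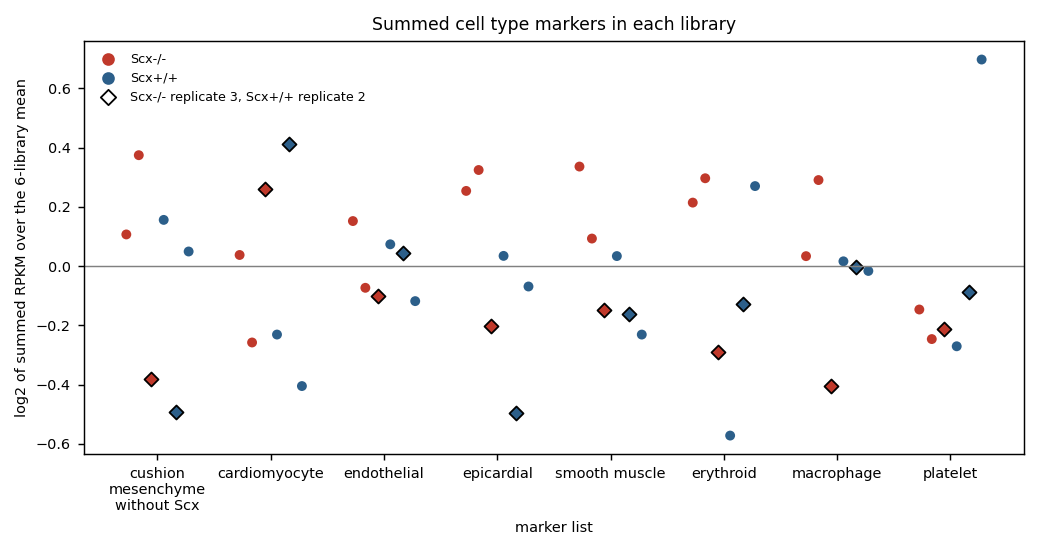
Summed RPKM of each marker list (x axis) in each library, as log2 over the mean of the 6 libraries (y axis), Scx-/- in red and Scx+/+ in blue. Scx-/- replicate 3 and Scx+/+ replicate 2 (diamonds) are the highest for cardiomyocyte markers and the lowest for mesenchyme markers other than Scx.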

How the data were processed

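RNA-seq libraries were made from dissected atrioventricular canal regions of 6 embryos, 3 per genotype, and grouped by the sample titles. The authors aligned reads to mm9 with TopHat 1.4.1 and calculated RPKM over Ensembl exons with easyRNASeq. They deposited RPKM without counts, after removing genes that never reached about 50 reads and raising the lowest values to a common fill-in, here 0.0949 RPKM. Ensembl identifiers were matched to GENCODE gene models of the same assembly for 18695 of the 18810 genes. Depth was solved as the number of reads that makes RPKM times exon length whole (98.5% to 98.6% of values under 1000 reads, within 0.1 read), and served only to describe precision, which covers counting error only. The labels do not say whether the embryos of a genotype shared a litter, so p-values measure the spread between these libraries.

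Genotypes were compared on log2(RPKM + 0.1) by limma 3.58.1 (R 4.3.3), with variances moderated along an intensity trend and without covariates. The p-values were adjusted over all genes by Benjamini-Hochberg. The fit was tested on simulated data with known answers. The simulated noise was independent between libraries, so that test does not show how the fit behaves where a pair of libraries stands apart. Paralogue ratios, taken on RPKM + 0.1, were compared by exact permutation in scipy 1.17.1. The alternatives were pseudocounts of 0.01 and 1, only the 13827 genes whose mean reached 1 RPKM, no trend, one-way ANOVA per gene, the test named in the study's methods, here on log2 RPKM, library medians set to 0, quantile normalization, the replicate number as a block, sex by Xist as a covariate, subtraction of a spline on length and GC, and fits that omit a single library. Chosen after the values were known were a covariate for the pair of libraries that stand apart and the removal of that pair, with and without medians set to 0. The labels do not say that replicate numbers pair the samples, and the main fit did not pair them. The members and lists were chosen with earlier results of these data known. Named are the 10 members, Scx, called genes of each list, otherwise its 2 most abundant, and Fos, Egr1 and Klf2. Fstl1, Sparcl1, Tgfbi, Yap1 and Wwtr1 were added after their values were seen. Promoter sequences came from RefSeq. Exon-level data were not analysed here.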

Additional observations from a re-analysis of the deposited data

How the results depend on the processing

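Of the 10 genes, 0 were called in limma (unadjusted p under 0.05), and this count stayed 0 under the 10 alternatives of scaling, filter and model that kept every library. It was 0 to 2 when a single library was omitted, the 2 being Postn and Fn1 without Scx+/+ replicate 2, and 1 of them, Postn, without Scx-/- replicate 1. It was 1 with both libraries that stand apart left out, 1 with the medians also set to 0 (Fn1 in both, with a log2 fold change of -0.73 in the latter) and 2 with a covariate for that pair. Over the other gene lists 10 of 197 identifiers were called, 5.08% where 3.89% of all genes were. Of these 10, 2 were the identifiers of Tead1, which are no separate measurements, so the share counts that gene more than once. The count was 6 of 158 among genes whose mean reached 1 RPKM (3.80%, all genes 4.11%) and 6 with the replicate block (3.05%, all genes 3.05%). It was 14 without the pair that stands apart (7.11%, all genes 8.44%), 10 with medians set to 0 (5.08%, all genes 3.43%) and 19 with both changes (9.64%, all genes 7.72%). It was 3 to 12 when a single library was omitted, with 3 without Scx+/+ replicate 3 (1.52%, all genes 2.87%) and 4 without Scx-/- replicate 2 or Scx+/+ replicate 1 (2.03%, all genes 3.33% and 5.33%). The cause was not tested.

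Of the log2 fold changes, those of Postn, Fn1 and Nov kept their direction in every setting, though all settings reuse the same libraries. Sparc reversed to -0.042 with library medians set to 0, -0.017 after quantile normalization and -0.055 once a spline on length and GC was subtracted, and Ccdc80 to -0.0086 and -0.022 under the first and second of these. Without the pair that stands apart Tnc reversed to 0.042, and with medians also set to 0 Thbs1 reversed to -0.078. When a single library was omitted, Postn ran from 0.31 to 0.73, Fn1 from -0.79 to -0.27, Nov from 0.08 to 0.98, Tnc from -0.42 to 0.26, Sparc from -0.056 to 0.23, Thbs1 from -0.16 to 0.30, Thbs2 from -0.0046 to 0.39, Ctgf from -0.22 to 0.18, Cyr61 from -0.34 to 0.16 and Ccdc80 from -0.012 to 0.22. The difference in the log2 ratio of Thbs1 to Thbs2 ran from -0.15 to 0.082, of Ctgf to Cyr61 from -0.24 to 0.52, of Ctgf to Nov from -0.80 to -0.20 and of Cyr61 to Nov from -1.32 to -0.062. Neighbours in the order of level kept 1 direction for 4 to 7 pairs, the 7 without Scx-/- replicate 3.

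Deviations of same-numbered libraries from their genotype means correlated at 0.09, -0.22 and -0.19, against 0.32 between Scx-/- replicate 3 and Scx+/+ replicate 2. Such deviations cancel within a genotype, and the libraries that stand apart weigh on them. They therefore cannot show whether same-numbered libraries were paired. With the replicate block, 0 of the 10 genes were called.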
